A study of Nannospalax ehrenbergi and Mus musculus with 14 samples.

Results

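The benign granulomas that grew at a carcinogen injection site in 2 *Spalax* were compared, microRNA by microRNA, with muscle from the uninjected side of the same 2 animals. *Spalax* is the blind mole rat, a long-lived subterranean rodent in which tumors are rare, and the 4 libraries were chosen from the 14 microRNA libraries of the series by their labels: diagnosis granuloma, injected side (IS) or uninjected side (UIS). Both animals were females, labelled spalax_600 and spalax_976 and called Sp600 and Sp976 here. Each had received a single subcutaneous injection of 1 mg of 3-methylcholanthrene (3MCA), a polycyclic hydrocarbon that causes fibrosarcoma in rodents, in 500 µl at the left flank of the neck, and they were operated on after 14 and 16 months, respectively. The labels give muscle tissue for both sides and no age, and both sides come from 3MCA-treated animals. The lesion at the IS was fibrotic and rich in spindle cells. A further 4 libraries, the IS and UIS of 2 *Spalax* with a malignant fibrosarcoma given the same dose (animal Sp2240, female, 18 months, and animal Sp2230, male, 30 months), entered the fit to share its estimate of spread and served for 1 comparison. Only 2 animals with a granuloma are in the series, and reads were named with mouse microRNA names, so a microRNA is called here by the mouse name that took its reads.

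MicroRNAs are short RNAs cut from the stem of a hairpin precursor. Either strand of the stem (the 5p or the 3p arm) can be loaded into Argonaute, which the microRNA then guides to partly complementary sites in messenger RNAs, lowering their stability and translation. Many are made from shared transcripts (clusters) or exist as several near-identical copies (families), and many are confined to 1 cell lineage, so that a microRNA profile reads both the state of cells and the mixture of cells. In a bulk tissue fewer cells of a type and less RNA per cell cannot be told apart. In muscle, miR-1, miR-133 and miR-206 follow the myogenic program. In injured or inflamed tissue miR-223 and miR-142 come with leukocytes, miR-21 and miR-146 follow inflammatory signalling, miR-199 and miR-214 mark mesenchymal cells, and miR-29 targets collagens.

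The 10 hairpins that follow are those on which the comparison turned, and they are the source of both arms that were counted: 3 from microRNAs that fell in the granuloma, 5 from microRNAs that rose in the granuloma and 2 whose arms changed by different amounts. They are the mouse hairpins of the GRCm38 build and the GENCODE M21 annotation, 5′ to 3′, not *Spalax* sequence. Capitals mark the innermost loop of the predicted fold nearest the middle of the hairpin, with the 5p arm to its left and the 3p arm to its right.
Mir206, chr1:20679010-20679082, plus strand: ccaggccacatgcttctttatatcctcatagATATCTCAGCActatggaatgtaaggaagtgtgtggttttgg
Mir133b, chr1:20682769-20682887, plus strand: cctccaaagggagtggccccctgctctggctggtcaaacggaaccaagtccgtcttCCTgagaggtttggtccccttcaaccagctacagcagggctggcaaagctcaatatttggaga
Mir135a-2, chr10:92072086-92072185, minus strand: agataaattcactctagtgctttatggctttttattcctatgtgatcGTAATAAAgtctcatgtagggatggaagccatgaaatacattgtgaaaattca
Mir21a, chr11:86584067-86584158, minus strand: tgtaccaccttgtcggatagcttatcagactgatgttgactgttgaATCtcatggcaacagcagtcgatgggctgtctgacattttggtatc
Mir223, chrX:96242817-96242926, plus strand: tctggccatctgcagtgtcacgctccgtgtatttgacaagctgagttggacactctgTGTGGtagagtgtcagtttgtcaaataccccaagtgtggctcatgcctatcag
Mir503, chrX:53053984-53054054, minus strand: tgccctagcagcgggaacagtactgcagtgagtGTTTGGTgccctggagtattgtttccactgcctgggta
Mir31, chr4:88910557-88910662, minus strand: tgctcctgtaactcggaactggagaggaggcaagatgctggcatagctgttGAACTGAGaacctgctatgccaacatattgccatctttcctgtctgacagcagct
Mir409, chr12:109743158-109743236, plus strand: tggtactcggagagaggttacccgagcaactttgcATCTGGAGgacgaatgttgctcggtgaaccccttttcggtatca
Mir27a, chr8:84208672-84208758, plus strand: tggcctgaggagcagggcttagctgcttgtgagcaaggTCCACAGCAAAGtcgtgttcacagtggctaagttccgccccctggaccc
Mir296, chr2:174267047-174267125, minus strand: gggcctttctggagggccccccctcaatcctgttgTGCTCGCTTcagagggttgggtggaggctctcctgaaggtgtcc

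Mir206 and Mir133b lie in exons of the non-coding gene Gm28653, and Mir135a-2 in an intron of the non-coding gene Rmst. Mir21a overlaps an exon of the protein-coding gene Vmp1, Mir223 an exon of F630028O10Rik, Mir31 an exon of the non-coding gene AL805899.1 and Mir409 an intron of the non-coding gene Mirg, while Mir503, Mir27a and Mir296 overlap no other annotated gene.

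The IS libraries held 3573253 and 3534623 microRNA reads and the UIS libraries 11557482 and 12370823 (animals Sp600 and Sp976 in this order, here and throughout), so that 3 reads, taken as the limit of detection, were 8.40e-05% and 8.49e-05% of an IS library and 2.60e-05% and 2.43e-05% of a UIS library. Of 1326 names, 619 had a read in at least 1 of the 4 libraries, 707 had none, and 447 passed the filter on low values and were tested. The 172 names with reads that were not tested never exceeded 48 reads in a library and made up at most 0.0115% of its reads. The granuloma profile was the more even one. The 10 most abundant names took 58.3% and 59% of the IS reads but 77.9% and 80.1% of the UIS reads, and the number of names that together held 50% of the reads was 8 in both IS libraries but 3 and 2 at the UIS. The effective number of equally abundant microRNAs, computed from the entropy of the shares, was 40.6 and 38.8 at the IS against 15.5 and 14.6 at the UIS. All these totals and shares count names with identical values, such as miR-199a-3p and miR-199b-3p, once per name. With identical values counted once, the tested names held 91.2% and 90.8% of the IS totals and 97.7% and 98.3% of the UIS totals. Double counting was thus larger at the IS, and evenness without it was not computed. More names were seen at the UIS with all reads (533 and 524 against 516 and 507), but at an equal depth of 3534623 reads 459 and 462 names would be seen there, fewer than the 516 and 507 at the IS.

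The most abundant microRNA was not the same on both sides. At the UIS miR-133a-3p, a microRNA of striated muscle, ranked first in both animals with 34.8% and 33.5% of the reads, and at the IS it held 0.155% and 0.00883% and ranked 61 and 159. miR-21a-5p, which is induced in fibrosis and in many tumors, ranked 1 and 3 at the IS with 8.45% and 8.94%, and 34 and 44 at the UIS with 0.236% and 0.162%. By mean share, the IS was led by miR-21a-5p (8.69%) and by the mesenchymal miR-199a-3p and miR-199b-3p (one value under both names, 8.68%). Next came miR-22-3p (7.22%) and the Hox-encoded miR-10b-5p (5.5%), followed by let-7f-5p (4.83%), miR-26a-5p (4.21%), let-7c-5p (3.92%), miR-181a-5p (3.69%) and miR-27b-3p (2.99%). The UIS was led by miR-133a-3p (34.2%), miR-22-3p (15.3%), miR-26a-5p (10.0%), miR-378a-3p (4.49%), which lies in the gene of a mitochondrial coactivator, and miR-27b-3p (3.9%), then miR-10b-5p (3.26%), let-7f-5p (2.51%), miR-30a-5p (1.8%), miR-143-3p of smooth muscle (1.67%) and miR-30d-5p (1.63%). The 10 most abundant names of both sides had 5 in common. miR-22-3p was near the top on both sides, with 7.68% and 6.77% of the IS reads against 13.6% and 17% of the UIS reads. Without the muscle microRNAs of the contractile list the 10 most abundant still held more of the reads at the UIS (72.5%) than at the IS (58.5%), as means of both animals.

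**Figure D1:**
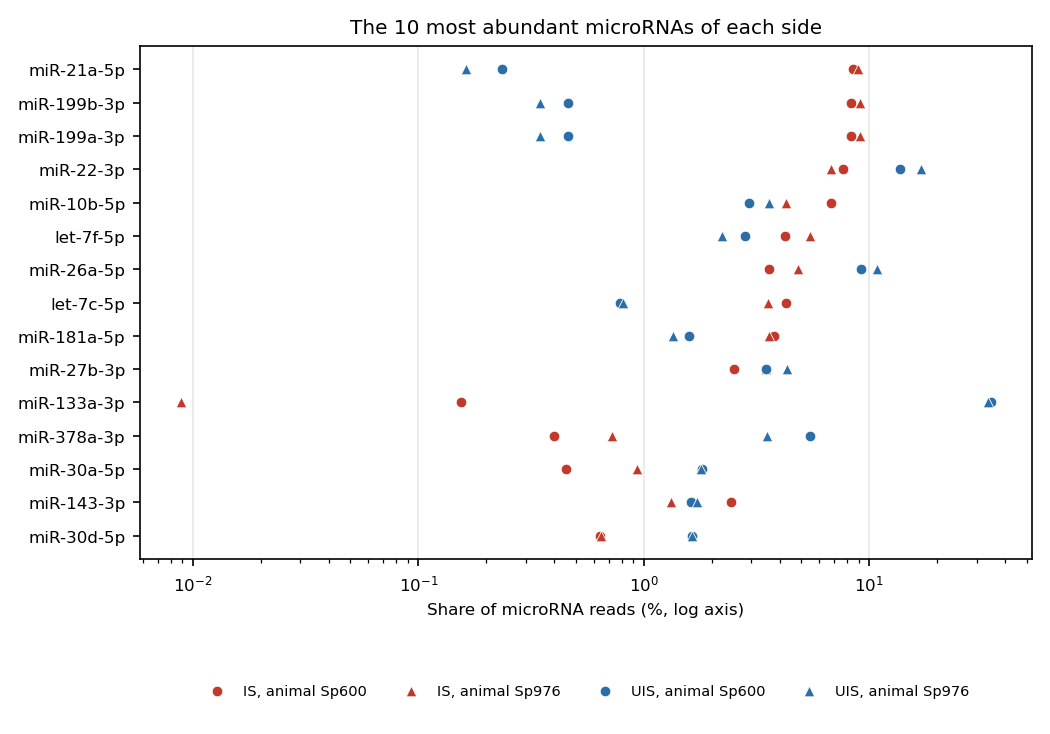
Share of the microRNA reads of a library (%, log axis) held by 15 microRNA names that were among the 10 most abundant at the IS or at the UIS, with 1 point per library (red IS, blue UIS, circle animal Sp600, triangle animal Sp976). miR-133a-3p stands at 34.8% and 33.5% in the UIS and below 1% in the IS libraries, and miR-21a-5p at 8.45% and 8.94% in the IS and below 1% in the UIS libraries.

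Of the 447 tested microRNAs, 216 (48.3%) differed between IS and UIS at an adjusted p under 0.05 (limma on log2 normalized counts plus 1, where a normalized count is a read number divided by the authors' size factor of the library), 114 higher at the IS (25.5%) and 102 lower (22.8%). All 216 moved the same way in both animals, and for each of them the IS and UIS values did not overlap. Over all tested microRNAs 374 moved the same way in both animals, and the values did not overlap for 348 (77.9%), so that non-overlap was common among microRNAs that were not called. Over the called ones the median log2 change was 3.03 for the higher and -3.06 for the lower. Changes past 16-fold were met 35 times among the falls and 19 times among the rises. The split between rises and falls depended on the scale. In CPM, reads scaled to an equal total for each library, the median log2 change of all tested microRNAs was 1.71 in place of 0.13. In this scale 295 microRNAs (66.0%) were called, 247 higher (55.3%) and 48 lower (10.7%). Of the called, 83.7% were then higher, against 52.8%. Of the 114 rises 113 were also called in CPM, and of the 102 falls 48 were, while 53 of them were no longer called and 1, let-7f-5p, was called higher. A change in CPM is given below as it bears on a direction. The counts of names in each list below stand against the shares over all tested, 25.5% higher and 22.8% lower. In CPM these shares were 55.3% and 10.7%. The count was 132 without the IS library of animal Sp600, 140 without the UIS library of Sp600 and 129 without the UIS library of Sp976. The libraries of the 4 *Spalax* sides are called IS Sp600, IS Sp976, UIS Sp600 and UIS Sp976 from here on.

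Muscle microRNAs were nearly gone from the granuloma. All 11 tested names of the contractile list (of 17 in the file) fell, with a median log2 change of -9.79 against 0.13 over all tested, and 10 of them also fell in CPM (-7.17 against 1.71). Together they held 0.165% and 0.00959% of the reads in the IS against 37.3% and 35.3% in the UIS libraries. miR-1a-3p, which with miR-133 is made in all striated muscle, had normalized counts of 179.7 and 20.3 in the IS against 308805 and 172003 in the UIS libraries (log2 change -11.86, SE 0.90, adjusted p = 0.000213). miR-133a-3p had 6896 and 395 in the IS against 5702421 and 5263997 in the UIS libraries (log2 change -11.69, SE 1.10, adjusted p = 0.000326). In both cases the IS of animal Sp600 held a higher level than the IS of animal Sp976, and both stood far below the UIS. miR-206-3p, which is particular to skeletal muscle, had 69.9 and 0 in the IS against 19192 and 21872 in the UIS libraries (log2 change -11.25, SE 1.64, adjusted p = 0.00174), and the adjacent miR-133b-3p had 178 and 7.6 in the IS against 67762 and 67107 in the UIS libraries (log2 change -10.75, SE 1.24, adjusted p = 0.000677). The microRNAs carried in introns of slow myosin genes had fallen likewise, miR-208b-3p to 13.7 and 1.27 from 1759 and 6733 (log2 change -9.22) and miR-499-5p to 6.24 and 2.53 from 2341 and 8505 (log2 change -9.79). miR-133a-5p, the minor arm of miR-133a, fell by 10.15 on the log2 scale. The label muscle tissue thus held for the UIS by these markers, and at the IS their levels lay far below those of the UIS. The part of lost muscle cells in the changes that follow was not tested.

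Most names of a further list, linked to muscle metabolism, fell too, but by less than the contractile list. Of 14 tested names of the miR-378, miR-22, miR-193 and miR-365 group (all 14 in the file), 10 fell and 3 rose (22.8% and 25.5% over all tested; median log2 change -2.94, -1.10 in CPM). miR-378a-3p had 17753 and 32250.4 in the IS against 895264 and 552490.5 in the UIS libraries (log2 change -4.88, SE 0.60, adjusted p = 0.00082), and its relatives miR-378d and miR-378c had 423 and 755 in the IS against 64237 and 42652 in the UIS libraries (log2 change -6.53) and 2893 and 7216 in the IS against 112195 and 70446 in the UIS libraries (log2 change -4.28). miR-22-3p, still ranked 4 in both IS libraries, had 342412 and 302943 in the IS against 2235122 and 2677051 in the UIS libraries (log2 change -2.93, SE 0.25, adjusted p = 0.000259). In each of these the 2 sides were well apart. The 3 that rose were miR-193a-3p, miR-193a-5p and miR-365-2-5p (log2 changes 2.73, 2.36 and 4.21), and none of them passed without IS Sp976 or UIS Sp976. With the animal as a block miR-193a-5p did not pass (adjusted p = 0.0503). In CPM 3 of the 14 rose and 8 fell (median log2 change -1.10). Outside the muscle lists the deepest fall was that of miR-135a-5p which had 0 and 0 in the IS against 3768 and 2780.1 in the UIS libraries (log2 change -11.66, SE 0.45, adjusted p = 6.51e-06). It was at least 868-fold lower at the IS when 3 reads per library are set as the limit of detection, and the other arm of 1 of its copies, miR-135a-2-3p, had 0 and 0 in the IS against 94.9 and 80.0 in the UIS libraries and was at least 23.2-fold lower. These 2 were the tested names of the miR-135 list (of 5 in the file). miR-488-3p, from an intron of the neuronal gene Astn1, had 2.5 and 0 in the IS against 234 and 135 in the UIS libraries. It was 144-fold lower (exact 95% counting interval 39.6 to 1198), from 2 reads in all at the IS.

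Several widely expressed families were also lower in the granuloma. All 7 names of the miR-29 family, which targets collagen messenger RNAs, were tested and fell (median log2 change -2.61, -0.75 in CPM). In CPM 3 of them fell. miR-29c-3p had 307 and 423 in the IS against 8469 and 8084 in the UIS libraries (log2 change -4.52, SE 0.35, adjusted p = 0.000213), and miR-29c-5p had 23.7 and 39.3 in the IS against 1747 and 1733 in the UIS libraries (log2 change -5.79), so this copy was depleted on both arms. miR-29a-3p, the most abundant copy, had 7529.8 and 19637 in the IS against 39253 and 63514 in the UIS libraries (log2 change -2.04, SE 0.53, adjusted p = 0.0165) and miR-29b-3p had 738 and 1335 in the IS against 2821 and 6221 in the UIS libraries (log2 change -2.08, SE 0.52, adjusted p = 0.015), and in CPM neither passed (log2 changes -0.19 and -0.23). miR-29a-3p and miR-29b-3p did not pass without IS Sp600 or UIS Sp976 (adjusted p 0.0727 to 0.111). The number of miR-29 names called lower was 3 without IS Sp600 or UIS Sp976. Of 11 tested names of the miR-30 family (of 12), 10 fell (median log2 change -2.86, -1.01 in CPM), and 3 did in CPM. miR-30a-5p had 20203 and 41899.6 in the IS against 295622 and 283118 in the UIS libraries (log2 change -3.31, SE 0.49, adjusted p = 0.00179), miR-30d-5p had 28423 and 29025 in the IS against 267105 and 255908 in the UIS libraries (log2 change -3.19, SE 0.24, adjusted p = 0.000213) and miR-30c-5p had 16529.9 and 23075 in the IS against 150061 and 121246 in the UIS libraries (log2 change -2.79). miR-30e-5p, with 32950.0 and 25149.9 in the IS against 101995 and 89900.1 in the UIS libraries, fell by 1.73 on the log2 scale but stood at 0.11 in CPM. Of 8 tested names of miR-26 and miR-101 (of 10), both known to target the histone methyltransferase Ezh2, 7 fell, 4 of them also in CPM. miR-26a-5p had 160625 and 215372 in the IS against 1507667 and 1698945 in the UIS libraries (log2 change -3.11, SE 0.30, adjusted p = 0.000342), miR-26b-5p had 11595 and 9924 in the IS against 38115 and 43568 in the UIS libraries (log2 change -1.93, -0.08 in CPM), and miR-101a-3p had 3880.4 and 4264 in the IS against 34346 and 36905 in the UIS libraries (log2 change -3.13). The near-identical miR-101c gave almost the same values (3947 and 4319 in the IS against 34775 and 37338 in the UIS libraries), so the reads of these 2 names cannot be held apart.

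The clusters of miR-23, miR-27 and miR-24 split. Of 11 names, all tested, 6 fell and 1, miR-27a-5p, rose, while in CPM none fell and 4 rose (median log2 change -1.49, 0.35 in CPM). miR-27b-3p had 112123 and 155359.9 in the IS against 570732 and 679758 in the UIS libraries (log2 change -2.24, SE 0.27, adjusted p = 0.000703, -0.39 in CPM). miR-23b-3p had 7813 and 12866 in the IS against 28843 and 27676 in the UIS libraries (log2 change -1.49, SE 0.36, adjusted p = 0.013, 0.35 in CPM), and miR-24-3p had 6714 and 9405 in the IS against 27151 and 29279.7 in the UIS libraries (log2 change -1.83, SE 0.35, adjusted p = 0.00513, 0.02 in CPM). miR-27a-3p, of the paralogous cluster, had 10284 and 13161 in the IS against 15758 and 16461 in the UIS libraries and did not pass (log2 change -0.47, adjusted p = 0.284, 1.37 in CPM). miR-23b-3p did not pass without IS Sp600, UIS Sp600 or UIS Sp976 (adjusted p 0.0643 to 0.0727). The count of falls was 3 without IS Sp600 or UIS Sp600, and the rise was lost (0 without IS Sp600 or UIS Sp976). Endothelial and smooth muscle microRNAs were lower by the size factors, and all but 1 of them not in CPM. miR-126a-5p and miR-126a-3p, the endothelial pair from an intron of Egfl7 and the only 2 tested of 3 endothelial names, had 20003 and 15051 in the IS against 105862 and 94111 in the UIS libraries (log2 change -2.52, SE 0.36, adjusted p = 0.0017) and 7679.6 and 6871 in the IS against 32099.9 and 29459 in the UIS libraries (log2 change -2.08, SE 0.44, adjusted p = 0.00726), and in CPM their log2 changes of -0.68 and -0.24 did not pass. Of the 5 names of miR-143 and miR-145, both of smooth muscle and pericytes, 3 fell (miR-143-3p, miR-145a-5p and miR-145b), which became 1 without UIS Sp600 or UIS Sp976. Their median of -1.67 turned to 0.17 in CPM. miR-143-3p had 108372 and 59103 in the IS against 266501 and 269535 in the UIS libraries (log2 change -1.74, SE 0.40, adjusted p = 0.0109, 0.10 in CPM) and miR-145a-5p had 3920.3 and 1354 in the IS against 7910.2 and 6835 in the UIS libraries (log2 change -1.67, SE 0.56, adjusted p = 0.0404, 0.17 in CPM), whereas miR-145a-3p and miR-143-5p, at 357 and 157 in the IS against 349 and 414 in the UIS libraries and 53.7 and 31.7 in the IS against 53.8 and 45.7 in the UIS libraries, did not pass (log2 changes -0.68 and -0.26, 1.13 and 1.32 in CPM, adjusted p = 0.301 and 0.748). miR-143-3p did not pass without UIS Sp600 or UIS Sp976 (adjusted p 0.0608 to 0.064). miR-145a-5p did not pass without IS Sp976, UIS Sp600, UIS Sp976, fibrosarcoma UIS Sp2240 or fibrosarcoma UIS Sp2230 (adjusted p 0.0719 to 0.193). miR-145b fell by 5.37 on the log2 scale.

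Blood and immune microRNAs went in different directions. Of 7 tested red cell names, the 4 of miR-486 fell, which were counted under miR-486a and miR-486b with identical 5p values of 19291 and 5006 in the IS against 299759 and 204407 in the UIS libraries (log2 change -4.65, SE 0.69, adjusted p = 0.00179). miR-486 is made in muscle as well as in red cells. miR-451a, the more specific red cell microRNA, had 35767 and 6609 in the IS against 30143 and 34781 in the UIS libraries and did not pass (log2 change -1.07, adjusted p = 0.339), and its neighbor miR-144-5p had 1221 and 185 in the IS against 679 and 865 in the UIS libraries (log2 change -0.69, adjusted p = 0.565). In CPM the direction of both turned (log2 changes 0.77 and 1.14), and neither passed. Both were higher in the IS of animal Sp600 than in that of Sp976. All 4 tested names of the leukocyte microRNAs miR-223 and miR-142 (of 5) rose (median log2 change 3.63, 5.26 in CPM), which together held 0.774% and 0.638% of the reads in the IS against 0.0348% and 0.0242% in the UIS libraries. miR-223-3p, abundant in neutrophils, had 14629 and 8627 in the IS against 1008 and 285 in the UIS libraries (log2 change 4.39, SE 1.07, adjusted p = 0.013), and miR-223-5p had 1269 and 929 in the IS against 170.1 and 55.9 in the UIS libraries (log2 change 3.46, SE 0.90, adjusted p = 0.0169). miR-142a-5p and miR-142a-3p, made in all blood cell lineages, had 16807 and 17572 in the IS against 4291 and 3399 in the UIS libraries (log2 change 2.17, SE 0.40, adjusted p = 0.00458) and 1799.8 and 1447 in the IS against 227 and 58.4 in the UIS libraries (log2 change 3.79, SE 0.68, adjusted p = 0.00392). The sides did not overlap in any of the 4, which was also so for 77.9% of all tested and for every called microRNA. miR-223-3p and miR-223-5p did not pass without IS Sp600 or UIS Sp976 (adjusted p 0.0537 to 0.113). Of the lymphocyte microRNAs miR-150 and miR-342 no name passed as a rise by the size factors. miR-150-5p, of mature lymphocytes, had 1111 and 2598 in the IS against 8799 and 5644 in the UIS libraries and fell (log2 change -2.05, SE 0.52, adjusted p = 0.0154), a fall not kept in CPM (log2 change -0.21). miR-342-3p and miR-342-5p had 413 and 637 in the IS against 346 and 224 in the UIS libraries and 28.7 and 41.8 in the IS against 21.3 and 11.4 in the UIS libraries and did not pass (adjusted p = 0.139 and 0.139), while in CPM both rose (log2 changes 2.66 and 2.14). miR-150-5p did not pass without IS Sp600 or UIS Sp600 (adjusted p 0.0737 to 0.099).

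MicroRNAs induced by inflammatory signalling rose, to different degrees in both animals. Of 10 tested names (of 12) 6 rose and none fell (median log2 change 2.50, 3.38 in CPM), and the number was 3 without IS Sp976 or UIS Sp600. In CPM 7 of them rose (over all tested 25.5% rose by the size factors and 55.3% in CPM). miR-21a-5p had 376740.1 and 400219.6 in the IS against 38629.9 and 25459 in the UIS libraries (log2 change 3.63, SE 0.45, adjusted p = 0.00082), with both granulomas alike. miR-146b-5p and miR-146a-5p, which dampen NF-kB signalling, had 10474 and 22250.2 in the IS against 1963 and 837 in the UIS libraries (log2 change 3.57, SE 0.59, adjusted p = 0.00271) and 3025 and 16145 in the IS against 825 and 1478 in the UIS libraries (log2 change 2.66, SE 0.75, adjusted p = 0.0219). miR-155-5p, of activated leukocytes, had 819 and 9006 in the IS against 932 and 368 in the UIS libraries and did not pass (log2 change 2.21, SE 1.02, adjusted p = 0.11). It was high in the granuloma of Sp976, and in animal Sp600 the IS was below the UIS. miR-146a-5p did not pass without IS Sp976, UIS Sp600 or UIS Sp976 (adjusted p 0.0589 to 0.123). The mesenchymal microRNAs miR-199 and miR-214 rose under all 6 names (median log2 change 2.93, 4.72 in CPM). Counting the identical miR-199a-3p and miR-199b-3p once, they held 11.7% and 11.8% of the IS totals but 0.57% and 0.41% of the UIS totals. These totals still count every name, so the shares are understated, more so at the IS. miR-199a-5p had 99726 and 84353 in the IS against 8946 and 6329 in the UIS libraries (log2 change 3.61, SE 0.39, adjusted p = 0.000596), miR-199a-3p had 370188 and 405894 in the IS against 75467 and 54326 in the UIS libraries (log2 change 2.60, SE 0.41, adjusted p = 0.00226) and miR-199b-5p had 41492 and 31338 in the IS against 7426 and 3597 in the UIS libraries (log2 change 2.80, SE 0.87, adjusted p = 0.0316). miR-199b-5p did not pass without IS Sp600, IS Sp976, UIS Sp600 or UIS Sp976 (adjusted p 0.0578 to 0.17).

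**Figure D2:**
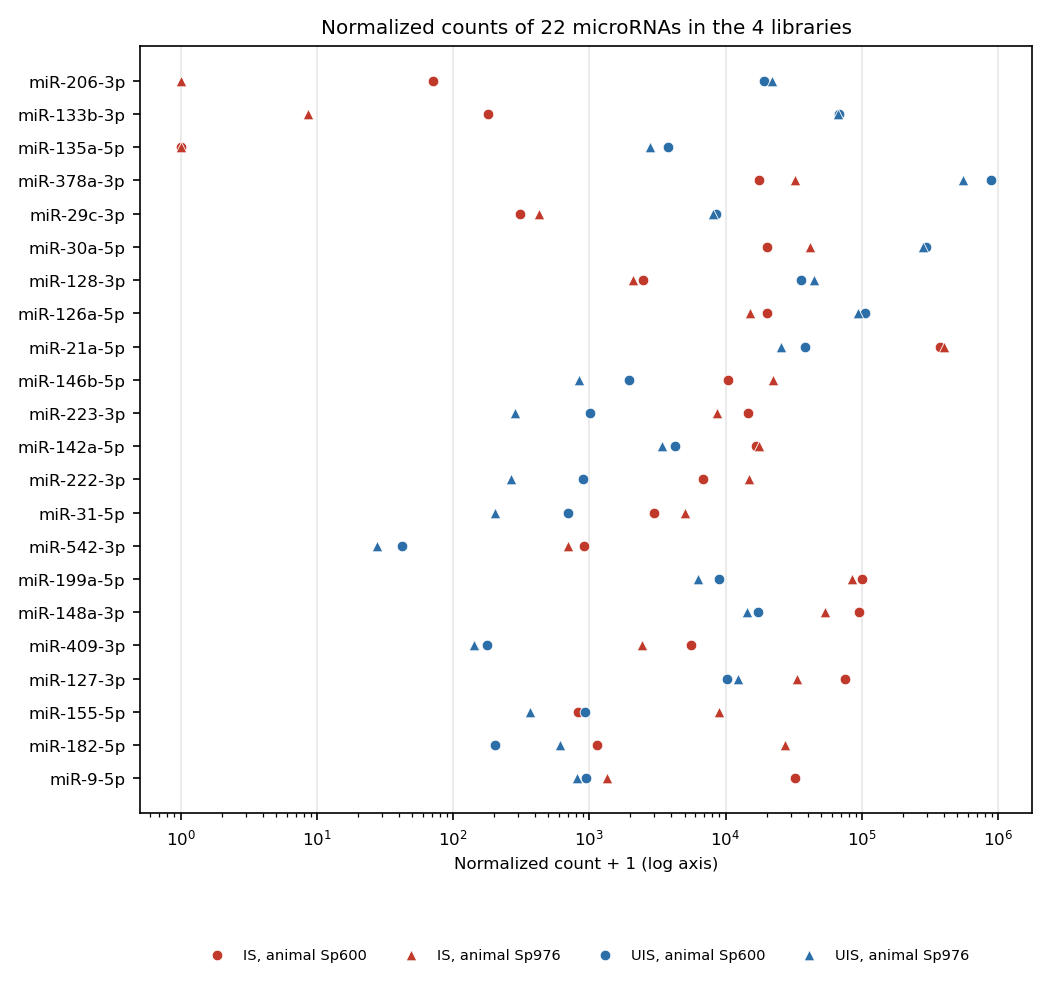
Normalized counts plus 1 (log axis) of 22 microRNAs in the IS (red) and UIS (blue) libraries of animals Sp600 (circles) and Sp976 (triangles), muscle and other lowered microRNAs first. miR-206-3p stands at 69.9 and 0 at the IS against 19192 and 21872 at the UIS, miR-21a-5p and miR-199a-5p are higher in both granulomas, and for miR-155-5p, miR-182-5p and miR-9-5p the 2 granulomas lie far apart.

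Further rises were found in small clusters linked to growth control. In the miR-322 and miR-503 cluster, whose 7 mouse hairpin genes lie within 6.35 kb of the minus strand of chromosome X (53047997 to 53054349), 7 of 8 tested names (of 13) rose and 1, miR-351-5p, fell (median log2 change 3.24, 4.49 in CPM). In CPM 7 rose and 0 fell. The fall was also not called with only the granuloma animals, with a pseudocount of 0.1 or with no filter. miR-450a-5p had 8168 and 12285 in the IS against 1249.9 and 649 in the UIS libraries (log2 change 3.47, SE 0.47, adjusted p = 0.00127), miR-322-5p, which targets cyclins, had 4915 and 10159.8 in the IS against 1112 and 587 in the UIS libraries (log2 change 3.13, SE 0.55, adjusted p = 0.00355) and miR-542-3p had 907 and 697 in the IS against 41.1 and 26.7 in the UIS libraries (log2 change 4.54, SE 0.51, adjusted p = 0.000633). miR-322-3p, the other arm, had 509 and 465 in the IS against 105 and 34.3 in the UIS libraries (log2 change 3.00). miR-503-5p had 58.7 and 53.2 in the IS against 2.83 and 0 in the UIS libraries, which is 41.8-fold higher (exact 95% counting interval 11.2 to 350.2) at the IS, from 2 reads in all at the UIS. The fall of miR-351-5p (log2 change -4.25) was lost without IS Sp600, IS Sp976, UIS Sp600 or either fibrosarcoma UIS library. miR-221 and miR-222, which target the cell-cycle inhibitor p27, rose under 3 of 4 names (median log2 change 4.12, 5.67 in CPM), 4 in CPM, and under 1 without UIS Sp976. miR-221-3p had 12929 and 26828 in the IS against 2419 and 790.3 in the UIS libraries (log2 change 3.75, SE 0.92, adjusted p = 0.0135), miR-222-3p had 6862 and 14792 in the IS against 898 and 266 in the UIS libraries (log2 change 4.36, SE 0.85, adjusted p = 0.00543), miR-221-5p had 811 and 1654 in the IS against 109 and 31.8 in the UIS libraries (log2 change 4.27) and miR-222-5p had 27.5 and 92.5 in the IS against 9.92 and 0 in the UIS libraries (log2 change 3.96, SE 1.43, adjusted p = 0.0531, 0.0402 with the animal as a block). The level was higher in the granuloma of Sp976 than in that of Sp600 for all 4 names. miR-221-3p and miR-221-5p did not pass without UIS Sp976 (adjusted p 0.0629 to 0.0966). miR-31, lost or gained in several cancers, rose on both arms, and on 1 without IS Sp600, IS Sp976 or UIS Sp976. miR-31-5p had 2999 and 5081 in the IS against 692 and 201 in the UIS libraries (log2 change 3.38, SE 1.01, adjusted p = 0.0276). miR-31-3p had 61.2 and 50.7 in the IS against 2.83 and 0 in the UIS libraries, 41.8-fold higher (exact 95% counting interval 11.2 to 350.2), from 2 reads in all at the UIS. miR-31-5p did not pass without IS Sp600, IS Sp976 or UIS Sp976 (adjusted p 0.0565 to 0.167). Of 12 tested names of miR-148, miR-152, miR-130 and miR-301 (of 14), 8 rose (median log2 change 1.90, 3.10 in CPM), all 12 in CPM, and 3 without IS Sp600, 5 without UIS Sp600 and 2 without UIS Sp976. miR-148a-3p, which targets a DNA methyltransferase, had 95659 and 53497 in the IS against 17393 and 14429 in the UIS libraries (log2 change 2.17, SE 0.37, adjusted p = 0.00297), miR-148b-3p had 9229 and 6491 in the IS against 3228 and 2709 in the UIS libraries (log2 change 1.39, SE 0.37, adjusted p = 0.0185), miR-130a-3p had 5142 and 5642 in the IS against 1253 and 901 in the UIS libraries (log2 change 2.34, SE 0.57, adjusted p = 0.013) and miR-301a-3p had 804 and 419 in the IS against 214 and 165 in the UIS libraries (log2 change 1.62, SE 0.48, adjusted p = 0.0257). miR-148b-3p did not pass without IS Sp600, UIS Sp600 or UIS Sp976 (adjusted p 0.0639 to 0.102). miR-130a-3p did not pass without UIS Sp976 (adjusted p = 0.0831). miR-301a-3p did not pass without IS Sp600, UIS Sp600, UIS Sp976, fibrosarcoma UIS Sp2240 or fibrosarcoma UIS Sp2230 (adjusted p 0.0503 to 0.142).

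A large group of rises belonged to the microRNAs of the imprinted Dlk1-Dio3 region, which are read from the maternal chromosome and are typical of embryonic tissue and brain. In the mouse the distal group spans 38.9 kb of chromosome 12 (109709060 to 109747960, 39 hairpin genes, with 1 further hairpin gene elsewhere) and the proximal group 54.6 kb (109563692 to 109618336, 18 hairpin genes). Of 44 tested names of the distal group (of 74) 34 rose and none fell, and of 18 of the proximal group (of 31) 11 rose and none fell, against 25.5% over all tested. The medians were 2.95 and 2.45 (0.13 over all), and in CPM 3.73 and 3.49 (1.71 over all). In CPM 43 and 17 of them rose. Of the 62 names 55 were higher at the IS in both animals. Together they held 3.76% and 1.62% of the IS reads but 0.136% and 0.196% of the UIS reads. The most abundant, miR-127-3p, which lies antisense to the gene Rtl1, had 75285 and 33693 in the IS against 10264 and 12305 in the UIS libraries (log2 change 2.16, SE 0.59, adjusted p = 0.0195), and its neighbor miR-136-3p had 5348 and 1604 in the IS against 291 and 465 in the UIS libraries (log2 change 2.99, SE 0.85, adjusted p = 0.0228). miR-341-3p had 4471 and 1338 in the IS against 325 and 480.3 in the UIS libraries (log2 change 2.63, SE 0.72, adjusted p = 0.0196). miR-411-5p led the distal group with 34767 and 19022 in the IS against 3993 and 4941 in the UIS libraries (log2 change 2.53, SE 0.60, adjusted p = 0.0119), and miR-409-3p had 5538 and 2426 in the IS against 177 and 142 in the UIS libraries (log2 change 4.52, SE 0.59, adjusted p = 0.00105). In all of these the granuloma of Sp600 was the higher of the 2. miR-496a-3p had the largest rise fitted for any microRNA, with 389 and 206.5 in the IS against 11.3 and 6.35 in the UIS libraries (log2 change 4.90, SE 0.79, adjusted p = 0.00241). miR-1197-3p, with 93.6 and 22.8 in the IS against 0 and 2.54 in the UIS libraries, was 43.6-fold higher (exact 95% counting interval 11.7 to 366), from 2 reads in all at the UIS. miR-381-3p, miR-410-3p and miR-493-5p, with 20201 and 6209.9 in the IS against 4735 and 8569 in the UIS libraries, 2874 and 970.4 in the IS against 519 and 1161 in the UIS libraries and 1772 and 608 in the IS against 198 and 456 in the UIS libraries, did not pass (adjusted p = 0.36, 0.227 and 0.152). The calls leaned on single libraries. The distal count was 7 without IS Sp600, 13 without UIS Sp600 and 18 without UIS Sp976, and the proximal count 1, 4 and 3. miR-127-3p, miR-136-3p, miR-341-3p and miR-411-5p did not pass without IS Sp600, UIS Sp600 or UIS Sp976 (adjusted p 0.0508 to 0.122). miR-1197-3p did not pass without IS Sp600 or UIS Sp600 (adjusted p 0.0757 to 0.0814). The median change was larger in animal Sp600 than in Sp976, 3.60 against 1.96 for the distal and 3.36 against 1.46 for the proximal group, and 42 of the 44 distal names rose more in animal Sp600. Other imprinted or rodent-specific loci held little. miR-483-5p, of the Igf2 gene, was the only tested name of 4 and had 176 and 0 in the IS against 12.8 and 3.81 in the UIS libraries (adjusted p = 0.814), a level carried by the granuloma of Sp600, and it passed without IS Sp976. miR-466i-5p, of the Sfmbt2 cluster, the only tested name of 74, had 83.6 and 77.3 in the IS against 582 and 241 in the UIS libraries and fell (log2 change -2.21, SE 0.69, adjusted p = 0.0316), with -0.36 in CPM. miR-466i-5p did not pass without IS Sp600, IS Sp976 or UIS Sp600 (adjusted p 0.0831 to 0.185).

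In the malignant fibrosarcomas the same microRNAs did not show this rise. The median log2 change there was -1.36 for the distal and -1.34 for the proximal group against -0.23 over all tested, and 3 of 44 and 0 of 18 were above 0. The signed log2 change was higher in the granuloma than in the fibrosarcoma for all 44 distal and for 17 of the 18 proximal names, against 205 of the 447 tested. Names of the same imprinted region, measured in the same animals, are not independent replicates, which holds for all counts of these groups. In the test of the difference itself, 17 microRNAs (3.8% of those tested) differed between the granuloma and the fibrosarcoma change, all with the granuloma change above the fibrosarcoma change on the signed scale, and 13 of the 17 were of these 2 groups. In size the fibrosarcoma change was the larger for miR-296-5p (0.88 in the granuloma, adjusted p = 0.218, against -3.27) and miR-379-5p (2.15 against -2.43). miR-409-3p had 141 and 61 in the IS against 166 and 128 in the UIS libraries in the fibrosarcoma animals Sp2240 and Sp2230, a log2 change of -0.64, and the difference was 5.16 (SE 0.84, adjusted p = 0.0432). miR-127-3p had 2801 and 995 in the IS against 7559 and 5459.6 in the UIS libraries there, and the difference was 4.11 (SE 0.83, adjusted p = 0.0432). Of the other 4, miR-199a-5p had 28506 and 18726 in the IS against 16868 and 10394 in the UIS libraries (difference 2.80), and miR-296-3p, miR-296-5p and miR-298-5p come from neighboring hairpins at the imprinted Gnas locus. miR-296-3p had 619 and 499.1 in the IS against 73.7 and 30.5 in the UIS libraries in the granuloma animals and 19.5 and 17.4 in the IS against 65.7 and 61.4 in the UIS libraries in the others (difference 5.25), and miR-298-5p had 1908 and 1401 in the IS against 489 and 353 in the UIS libraries and 241 and 127 in the IS against 489 and 498 in the UIS libraries (difference 3.47). The 17 depended on the libraries and on the fit. By limma 0 passed without IS Sp600, UIS Sp600, UIS Sp976, the fibrosarcoma IS library of Sp2230 or either fibrosarcoma UIS library (74 to 115 at an unadjusted p under 0.05, against 95 with all libraries), 39 passed without IS Sp976 and 31 without the fibrosarcoma IS library of Sp2240, and 5 passed with the animal as a block. With so few animals the lesion cannot be told apart from the animal, its sex and the time after injection. The fibroblast list likewise had the higher median change in the granulomas, 2.93 against 0.74 in the fibrosarcomas. The miR-17/92 polycistrons went the other way, with 0.32 in the granulomas against 1.67 in the fibrosarcomas. These 2 differences of medians were not tested as such.

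**Figure D3:**
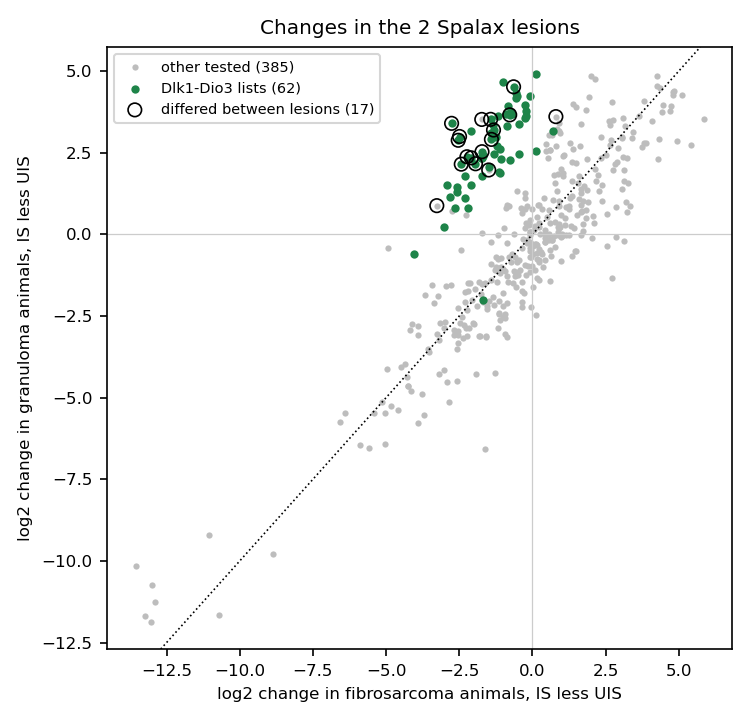
Log2 change of each of 447 tested microRNAs in the fibrosarcoma (x axis) and in the granuloma (y axis), IS against UIS, with the 62 Dlk1-Dio3 names in green, the other 385 in grey and the 17 that differed between the lesions circled. The green points lie mostly to the left of 0 and above it, with medians of 2.95 and 2.45 in the granuloma for the distal and proximal groups against -1.36 and -1.34 in the fibrosarcoma.

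Proliferation microRNAs were close to level by the size factors. Of 19 tested names of the miR-17/92 cluster and its paralogs (of 28), which are driven by Myc, 2 rose (miR-18a-5p and miR-19a-3p, log2 changes 1.59 and 2.30) and none fell, with a median of 0.32, while in CPM 15 rose with a median of 1.83. The 2 rises became 1 without IS Sp976 and also with the animal as a block, and none without any single one of the other 3 granuloma-animal libraries or without either fibrosarcoma UIS library. miR-92a-3p had 27200.0 and 34897 in the IS against 29859.5 and 32599 in the UIS libraries (log2 change -0.02, 1.83 in CPM), miR-25-3p had 13815 and 17829 in the IS against 15019.7 and 17548 in the UIS libraries (-0.05, 1.79 in CPM), miR-93-5p had 4497 and 5079 in the IS against 4787 and 4608 in the UIS libraries (0.02) and miR-19b-3p had 2165 and 1382 in the IS against 822 and 912 in the UIS libraries (1.00), and none of these 4 passed. In the miR-15/16 family, which targets cyclins, 2 of 8 tested names (of 12) rose, miR-15b-5p and miR-15b-3p (log2 changes 1.99 and 1.82), and 1 without IS Sp600. miR-16-5p had 133867 and 132307 in the IS against 102692 and 114622 in the UIS libraries (log2 change 0.29, adjusted p = 0.406). miR-15a-5p, miR-195a-5p and miR-497a-5p had log2 changes of -0.01, 0.02 and 0.02, and the first was at 1.83 in CPM. By the size factors 25.5% of all tested microRNAs rose, which is near the share of rises among these 8 names. In CPM 6 of the 8 rose and none fell (median log2 change 2.14), while 55.3% of all tested rose. miR-210-3p, induced by hypoxia, had 1686 and 1133 in the IS against 795 and 583 in the UIS libraries (log2 change 1.02, SE 0.39, adjusted p = 0.0658), and miR-210-5p had 213 and 195 in the IS against 130.4 and 113 in the UIS libraries (log2 change 0.74, SE 0.47, adjusted p = 0.228). In CPM both rose (log2 changes 2.84 and 2.45), and by DESeq2 miR-210-3p did (adjusted p = 0.041). None of the 5 tested names of miR-34 and miR-449 (of 10), which are linked to p53 and to ciliated cells, passed. miR-34a-5p had 162 and 831 in the IS against 498.8 and 541 in the UIS libraries, low in the granuloma of Sp600 and high in that of Sp976 (adjusted p = 0.633), miR-34c-5p had 33.7 and 19 in the IS against 15.6 and 11.4 in the UIS libraries, miR-34a-3p had 3.74 and 7.6 in the IS against 5.67 and 8.89 in the UIS libraries and miR-449a-5p had 46.2 and 10.1 in the IS against 1.42 and 3.81 in the UIS libraries (log2 change 2.75, SE 1.20, adjusted p = 0.0951, 0.0433 with the animal as a block). Of the 5, the number that passed was 1 without IS Sp976, in CPM, by DESeq2 and with the animal as a block.

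The let-7 family, which promotes differentiation, was nearly level as well. Of 22 tested names (of 23), 1 rose (let-7a-2-3p, 3.91) and 4 fell (let-7d-5p -1.51, let-7d-3p -1.27, let-7f-5p -0.90 and let-7g-5p -2.08), with a median of -0.02 that turned to 1.79 in CPM, where 16 rose. The 4 falls became 2 with the animal as a block, 1 without IS Sp600 or UIS Sp600 and 2 without UIS Sp976. let-7f-5p had 187915 and 244171 in the IS against 459225 and 349272 in the UIS libraries (log2 change -0.90, SE 0.28, adjusted p = 0.0292, 0.0829 with the animal as a block) and was called higher in CPM (log2 change 0.94). let-7c-5p had 190998 and 159353 in the IS against 128396 and 126483 in the UIS libraries and did not pass (adjusted p = 0.422). let-7a-5p and let-7i-5p had 102666 and 142780.5 in the IS against 132338 and 114476 in the UIS libraries and 94991 and 60253 in the IS against 77525 and 75888 in the UIS libraries, with log2 changes of -0.02 and -0.02 that were both 1.82 in CPM. let-7f-5p did not pass without IS Sp600, UIS Sp600, UIS Sp976, fibrosarcoma UIS Sp2240 or fibrosarcoma UIS Sp2230 (adjusted p 0.0535 to 0.183). Of the 11 names of miR-99, miR-100 and miR-125, all tested, 5 rose (miR-100-5p, miR-100-3p, miR-125b-5p, miR-125b-1-3p and miR-99b-5p), 2 with the animal as a block, 1 without any single one of the 4 granuloma-animal libraries and 2 without either fibrosarcoma UIS library. In CPM 9 of the 11 rose and none fell (median log2 change 2.53). The rises over all tested were 25.5% by the size factors and 55.3% in CPM. miR-125b-5p had 82965 and 91914 in the IS against 51039 and 49672 in the UIS libraries (log2 change 0.79, SE 0.26, adjusted p = 0.0379, 0.115 with the animal as a block) and miR-100-5p had 14815 and 17802 in the IS against 6463 and 6326 in the UIS libraries (log2 change 1.34, SE 0.47, adjusted p = 0.046), while miR-99a-5p and miR-125a-5p, with 16037 and 6956 in the IS against 22007 and 20009 in the UIS libraries and 14650.3 and 15621 in the IS against 17357 and 12791 in the UIS libraries, did not pass (adjusted p = 0.344 and 0.972). The log2 change of miR-99a-5p turned from -0.99 to 0.85 in CPM. miR-125b-5p and miR-100-5p did not pass without IS Sp600, IS Sp976, UIS Sp600, UIS Sp976, fibrosarcoma UIS Sp2240 or fibrosarcoma UIS Sp2230 (adjusted p 0.0636 to 0.161). In the miR-181 family 1 of 7 tested names (of 10) passed. In CPM 7 of the 7 rose and none fell (median log2 change 1.97). miR-181a-1-3p had 1231 and 1363 in the IS against 592 and 480.3 in the UIS libraries (log2 change 1.28, SE 0.42, adjusted p = 0.0376, 0.0881 with the animal as a block), and it did not pass without IS Sp600, IS Sp976, UIS Sp600, UIS Sp976, fibrosarcoma UIS Sp2240 or fibrosarcoma UIS Sp2230 (adjusted p 0.0585 to 0.164). miR-181a-5p had 168319.8 and 161123 in the IS against 260519 and 211799 in the UIS libraries (log2 change -0.51, 1.33 in CPM), miR-181b-5p had 15013 and 12664 in the IS against 13511 and 8537 in the UIS libraries and miR-181c-5p had 1828 and 1504 in the IS against 2769 and 1919.9 in the UIS libraries (log2 change -0.48, 1.36 in CPM). MicroRNAs encoded in the Hox clusters, which follow position along the body axis, rose in 6 of 9 tested names (of 11) and fell in 1, miR-10b-5p. In CPM 6 of the 9 rose and none fell (median log2 change 2.62), against the same 25.5% by the size factors and 55.3% in CPM over all tested. The number of rises was 1 without IS Sp600, UIS Sp600 or UIS Sp976 and 3 without fibrosarcoma UIS Sp2240 or fibrosarcoma UIS Sp2230. miR-196a-5p had 2078 and 505 in the IS against 29.8 and 67.3 in the UIS libraries (log2 change 4.48, SE 1.07, adjusted p = 0.0123) and miR-196b-5p had 256 and 13.9 in the IS against 4.25 and 0 in the UIS libraries, 67.6-fold higher (exact 95% counting interval 22.8 to 330.2), both highest in the granuloma of Sp600. The UIS side of miR-196b-5p was 3 reads in all. miR-10b-5p had 300326 and 191124 in the IS against 477972 and 566155 in the UIS libraries (log2 change -1.12, SE 0.34, adjusted p = 0.0285, 0.0558 with the animal as a block) and stood at 0.73 in CPM, while miR-10a-5p and miR-10b-3p had 53174 and 101398 in the IS against 52106 and 35145 in the UIS libraries and 107 and 72.2 in the IS against 132 and 184 in the UIS libraries (adjusted p = 0.181 and 0.177). miR-196a-5p did not pass without IS Sp600 or UIS Sp600 (adjusted p 0.0599 to 0.0808). miR-196b-5p did not pass without IS Sp600, UIS Sp600, UIS Sp976, fibrosarcoma IS Sp2240, fibrosarcoma IS Sp2230, fibrosarcoma UIS Sp2240 or fibrosarcoma UIS Sp2230 (adjusted p 0.0508 to 0.208). miR-10b-5p did not pass without IS Sp976, UIS Sp600, UIS Sp976, fibrosarcoma UIS Sp2240 or fibrosarcoma UIS Sp2230 (adjusted p 0.0517 to 0.16).

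**Figure D4:**
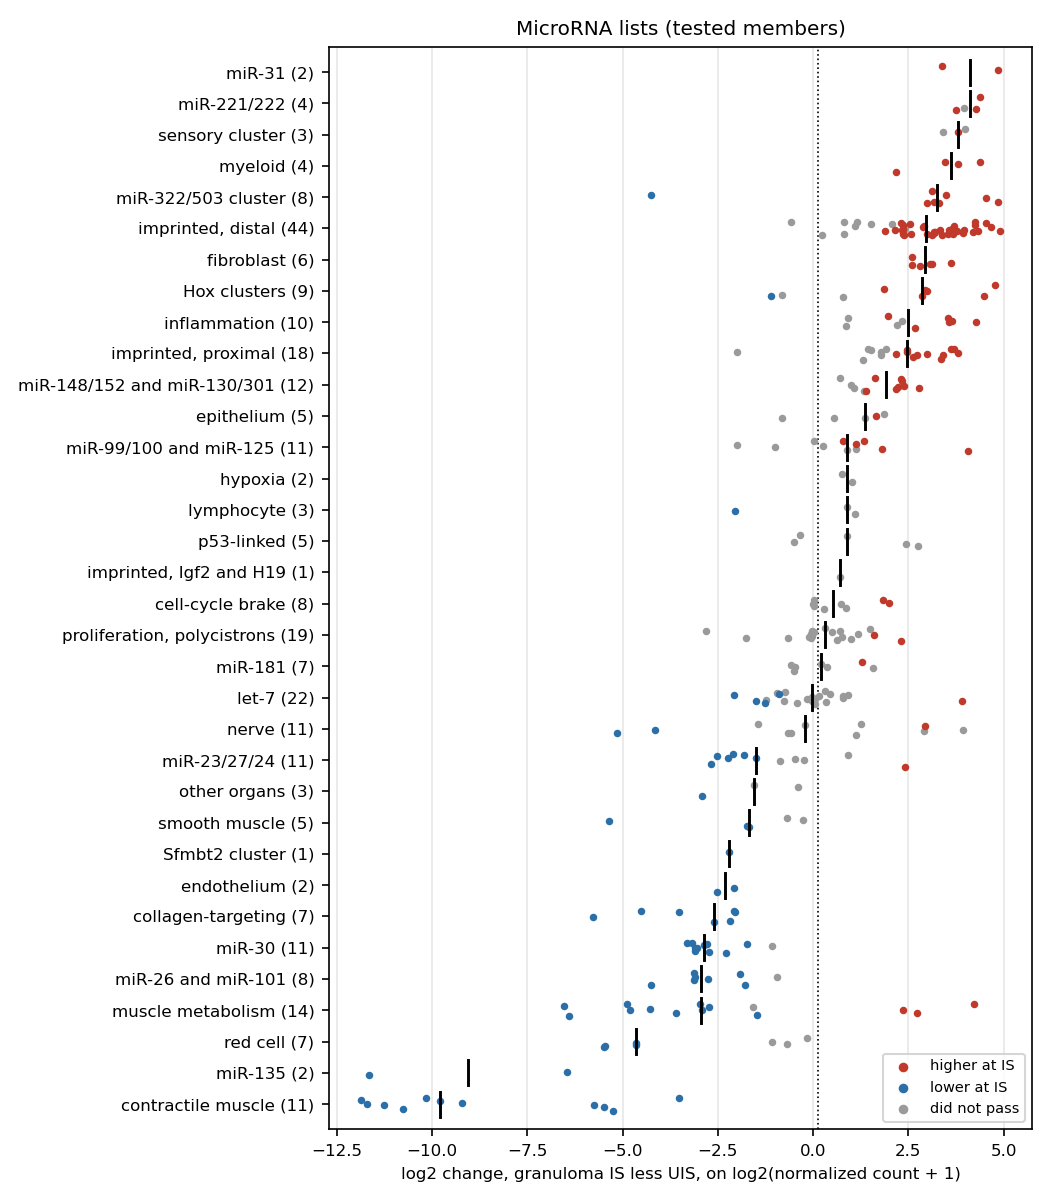
Log2 change (IS against UIS) of the tested members of 34 lists of microRNAs, with 1 point per microRNA (red higher, blue lower, grey did not pass), a black bar at the median of each list and a dotted line at the median of all tested, 0.13. Contractile muscle lies lowest, with a median of -9.79, and the myeloid, fibroblast, miR-322 and miR-503, miR-221 and miR-222 and both Dlk1-Dio3 lists lie to the right of the line.

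Markers of cell types that neither tissue was labelled to hold were low or uneven. Epithelial names were tested for 5 of 13, and 1, miR-141-3p, rose, with 26.2 and 24.1 in the IS against 8.5 and 6.35 in the UIS libraries (log2 change 1.64, SE 0.54, adjusted p = 0.0395, 0.0881 with the animal as a block). miR-200c-3p and the skin microRNAs miR-205-5p and miR-203-3p had 11.2 and 26.6 in the IS against 4.25 and 3.81 in the UIS libraries, 12.5 and 22.8 in the IS against 25.5 and 36.8 in the UIS libraries and 38.7 and 528 in the IS against 35.4 and 87.7 in the UIS libraries and did not pass. In CPM 2 of the 5 rose. All epithelial names together held 0.00241% and 0.0136% of the reads in the IS against 0.000493% and 0.000954% in the UIS libraries. miR-141-3p did not pass without IS Sp600, IS Sp976, UIS Sp600, UIS Sp976, fibrosarcoma UIS Sp2240 or fibrosarcoma UIS Sp2230 (adjusted p 0.0719 to 0.161). Of 11 tested nerve names (of 21) miR-219a-5p rose (2.95) and 2 fell, miR-128-2-5p (-5.14) and miR-128-3p, which is made in muscle as well and had 2477 and 2078 in the IS against 36059 and 44420.2 in the UIS libraries (log2 change -4.14, SE 0.51, adjusted p = 0.000836). The median of -0.23 turned to 1.13 in CPM, where 5 rose and 2 fell, and the count of rises was 0 without IS Sp600 or UIS Sp600, 3 without IS Sp976 and 2 without fibrosarcoma IS Sp2240 or fibrosarcoma IS Sp2230, and 2 with the animal as a block. The neuron-specific miR-124-3p had normalized counts of 22.5 and 3.8 in the IS against 8.5 and 15.2 in the UIS libraries (log2 change -0.23). miR-9-5p, miR-338-3p and miR-129-5p had 32422 and 1345 in the IS against 944 and 808 in the UIS libraries, 889 and 427 in the IS against 1219 and 2306 in the UIS libraries and 272 and 207.8 in the IS against 108 and 109 in the UIS libraries and did not pass (adjusted p = 0.166, 0.116 and 0.306). Liver and pancreas names were low. miR-375-3p had 25 and 11.4 in the IS against 65.2 and 40.7 in the UIS libraries, and miR-122-5p had 8.74 and 1.27 in the IS against 4.25 and 6.35 in the UIS libraries. miR-216b-5p, with 0 and 0 in the IS against 2.83 and 14 in the UIS libraries, was the 1 of 3 tested (of 10) that passed. By the mean of both UIS libraries it was at least 2.23-fold lower at the IS (-0.57 in CPM on the log2 scale). This bound rests on UIS Sp976, since the value in UIS Sp600 lay below the limit of 3 reads there (4.25). miR-216b-5p did not pass without IS Sp600, IS Sp976 or UIS Sp976 (adjusted p 0.0752 to 0.116).

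The 2 granulomas differed from each other more than the 2 UIS samples did. The median absolute log2 difference between animals was 0.657 at the IS and 0.486 at the UIS, and 50 microRNAs differed by more than 2 on the log2 scale between the granulomas (39 higher in Sp600 and 11 higher in Sp976) against 12 between the UIS samples. With 1 library per granuloma these are values of single libraries, with no test, and the microRNAs named in this paragraph were chosen after their values were seen. Of the 50, 20 were called between IS and UIS. The granuloma of Sp976 held more of the cluster of miR-183, miR-96 and miR-182, which is active in sensory cells and in several tumors. miR-182-5p had 1139.5 and 27525 in the IS against 203 and 611 in the UIS libraries (log2 change 3.99, SE 1.54, adjusted p = 0.0651, 0.00635 with the animal as a block), miR-183-5p had 337 and 6481 in the IS against 77.9 and 249 in the UIS libraries (log2 change 3.40, SE 1.46, adjusted p = 0.0914, 0.00797 with the animal as a block) and miR-96-5p had 15 and 214 in the IS against 1.42 and 6.35 in the UIS libraries (log2 change 3.80, SE 1.32, adjusted p = 0.0467). All 3 were the tested names of that cluster (of 6), and 1 passed without the block against 3 with it and 3 in CPM. The count was 3 without IS Sp600 and 0 without IS Sp976, UIS Sp600, UIS Sp976, fibrosarcoma UIS Sp2240 or fibrosarcoma UIS Sp2230. miR-96-5p did not pass without IS Sp976, UIS Sp600, UIS Sp976, fibrosarcoma UIS Sp2240 or fibrosarcoma UIS Sp2230 (adjusted p 0.0789 to 0.253). miR-155-5p, miR-146a-5p and miR-203-3p, given above, were also higher in this granuloma, and so was miR-1247-5p (4.99 and 161). The whole inflammation list had a median change of 3.71 in animal Sp976 and of 1.61 in animal Sp600, and the myeloid list 4.32 and 2.94. The granuloma of Sp600 held more miR-452-5p (2034 and 86.1) and miR-224-5p (5555 and 498), which share a cluster, and more miR-9-5p (32422 and 1345), miR-335-5p (313 and 35.5), miR-672-5p (338 and 2.53), miR-483-5p and miR-451a. It also held more of the remaining muscle microRNAs, for which the contractile list was at 0.165% of its reads against 0.00959%, and more of the imprinted groups. The part of sampling, of cell mixture and of the time after injection in these differences was not tested.

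Summed over names that share a family number and arm, with identical values counted once, 360 families could be tested, and 165 differed (45.8%), 91 higher (25.3%) and 74 lower (20.6%). Of the 55 with 2 or more tested members, 11 were higher and 19 lower, and in 19 every tested member was called in 1 direction (7 higher, 12 lower). Among families of 2 or more names in the file, miR-135-5p, miR-208-3p, miR-101-5p, miR-376-5p and miR-450-5p had only 1 tested member. The largest falls among these families and the others of 2 or more names were miR-133-3p (-11.68), miR-133-5p (-10.15), miR-208-3p (-9.22) and miR-1-5p (-6.22) of muscle, miR-135-5p (-11.66), miR-486-3p (-5.59), miR-378 (-4.81) and miR-101-5p (-4.16). The largest rises were miR-196-5p (4.49), miR-376-5p (3.70) and miR-376-3p (3.60) of the Dlk1-Dio3 region, miR-450-5p (3.47), miR-199-5p (3.33), miR-146-5p (3.16), miR-299-3p (2.36) and miR-130-3p (2.29). As sums, miR-199-5p had 141218 and 115691 in the IS against 16372 and 9926 in the UIS libraries (log2 change 3.33, SE 0.48, adjusted p = 0.00167), and miR-146-5p had 13499.5 and 38396 in the IS against 2787 and 2315 in the UIS libraries (log2 change 3.16, SE 0.54, adjusted p = 0.0031). In 4 families members were called in both directions. In miR-193-3p, miR-193a-3p rose (2.73, 442 and 684 in the IS against 112 and 59.7 in the UIS libraries) and miR-193b-3p fell (-2.96, 1312 and 1389.7 in the IS against 11970.2 and 9259 in the UIS libraries), so that miR-193b-3p made up 70.6% of the family at the IS and 99.2% at the UIS, as means of both animals. The same copies moved apart on the other arm, in miR-193-5p (2.36 and -2.74). In miR-27-5p, miR-27a-5p rose (2.40, 222.2 and 151 in the IS against 49.6 and 22.9 in the UIS libraries) and miR-27b-5p fell (-2.67, 377 and 751 in the IS against 2707 and 4244 in the UIS libraries), and the share of miR-27b-5p was 75.2% at the IS and 99.0% at the UIS. The fourth was let-7-3p, where let-7a-2-3p rose and let-7d-3p fell. The number of families called was 103 without IS Sp600, 105 without UIS Sp600 and 87 without UIS Sp976.

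Both arms of a hairpin mostly moved together. In 131 hairpins with both arms tested, both arms were called in 54, in the same direction in every case (33 higher and 21 lower), 1 arm was called in 28 and none in 49. The change of the 5p and of the 3p arm had the same sign in 116, and across these hairpins, which are not independent replicates, the 2 changes had a Pearson's r of 0.892 with a median absolute difference of 0.639 on the log2 scale. The ratio of the 5p to the 3p arm, which does not depend on the size factors apart from the added count of 1, changed in 14 of 131 (10.7%), 7 times toward the 5p and 7 times toward the 3p arm. In miR-27a, whose hairpin is printed above, the share of the reads held by the 5p arm was 2.11% and 1.13% in the IS against 0.314% and 0.139% in the UIS libraries (log2 change of the ratio 2.87, SE 0.44, adjusted p = 0.0033), from 178 and 119 reads in the IS against 35 and 18 in the UIS libraries. The minor arm thus rose while the main arm did not pass. In miR-664 the 5p arm took 41.5% and 47.5% in the IS against 9.45% and 9.9% in the UIS libraries (log2 change of the ratio 2.90, SE 0.46, adjusted p = 0.0033) as miR-664-3p fell by 4.37 on the log2 scale and miR-664-5p, at -1.47, did not pass. In miR-143 the 5p arm took 0.0495% and 0.0536% in the IS against 0.0202% and 0.017% in the UIS libraries (log2 change of the ratio 1.48, SE 0.30, adjusted p = 0.0121). In miR-296 the 5p arm took 30.3% and 24.8% in the IS against 61.2% and 78.6% in the UIS libraries (log2 change of the ratio -2.64, SE 0.58, adjusted p = 0.0199, 0.069 with the animal as a block), so the arm with more reads changed from the 5p to the 3p in both animals. Among the 131 this occurred in 1 further hairpin, miR-152, chosen after its values were seen. For miR-133b and miR-499 the ratio also passed (7.23 and -4.54), but the minor arm had 0 reads in both IS libraries (5 and 12 reads of miR-133b-5p and 15 and 50 of miR-499-3p at the UIS), so the ratio there rests on the limit of detection. The other 8 were miR-146b, miR-539, miR-29c, miR-324, miR-133a, miR-190a, miR-101a and let-7i. Some of these also rest on few reads of the minor arm. miR-539-3p had 2 and 6 reads at the UIS, and miR-190a-3p had 9 and 4 at the IS against 3 and 4 at the UIS. miR-133a-5p had 20 and 2 reads at the IS. With the animal as a block 6 of the 8 did not pass, miR-146b (adjusted p = 0.0686), miR-29c (0.057), miR-324 (0.0861), miR-133a (0.0754), miR-190a (0.057) and miR-101a (0.0861). The count was 6 without IS Sp976, 7 without UIS Sp600, 3 without UIS Sp976 and 7 with the animal as a block.

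**Figure D5:**
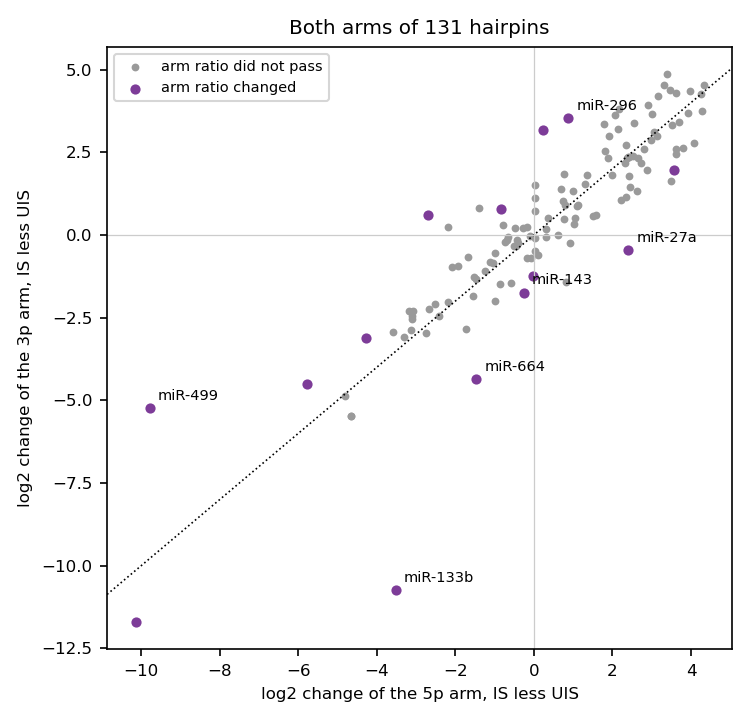
Log2 change (IS against UIS) of the 5p arm (x axis) and of the 3p arm (y axis) of 131 hairpins with both arms tested, with the 14 whose ratio changed in purple and 6 of them named. Most hairpins lie along the diagonal (r = 0.892), while miR-27a lies below it with the 5p arm gained and miR-296 above it with the 3p arm gained.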

How the data were processed

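MicroRNA libraries had been made with the TruSeq Small RNA kit from total RNA and sequenced on one lane, and per the study's methods adaptor-trimmed reads were mapped with mirDeep. The submitters' processing notes also name TopHat 1.4.1, HTSeq, DESeq and GRCm38, with no role for the microRNA reads. The deposited values are a signal per microRNA name: each library's read number divided by 1 size factor of the authors. Multiplied back, 100.0% of values came out whole within 0.001, with size factors of 0.706 to 0.801 in the 4 granuloma-animal libraries. Of 13 columns 8 were used, and the 5 mouse libraries were not analysed here. No strand setting was stated in the sources used here.

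Names reaching 10 in 2 or more of the 8 *Spalax* libraries were tested with limma 3.58.1 (R 4.3.3) on log2(value + 1), a spread following the mean, 4 group means and Benjamini-Hochberg adjustment at 0.05. Fold changes on this scale understate those of low microRNAs. Alternatives were edgeR 4.0.16 (quasi-likelihood) and DESeq2 1.42.0 on the recovered reads, log2(CPM + 1), a pseudocount of 0.1, no filter, other size factors, and each library left out. The animal joins IS and UIS by the specimen label. Deviations of same-numbered samples had a correlation of 0.0933, and the fit with the animal as a block was an alternative. Replicates differed well beyond counting error (chi-square per degree of freedom 701 for the IS and 610 for the UIS), and intervals and limits of 3 reads cover counting error only. Reads carried no molecular identifiers. 71 names repeat another name's values.

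Families were formed by number and arm in the name. The 34 lists are of known lineage, cluster or family. Members and lists were chosen with earlier results of these data known. Named microRNAs were the 10 most abundant of each side, the 10 largest rises and falls called with 1 direction in both animals, up to 4 most abundant tested members of a list, called members where 5 or fewer were counted, those that differed between lesions, the 6 hairpins with the smallest p of the arm ratio, and the 8 largest rises and falls of families with 2 or more members. Hairpins were taken from GENCODE M21 and folded with RNAfold 2.7.2. The scripts were tested on simulated data.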

Additional observations from a re-analysis of the deposited data

Results flagged for a closer look

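The change from UIS to IS differed between granuloma and fibrosarcoma for 17 microRNAs in a test of the difference itself (limma, adjusted p 0.0432 to 0.0488, with 95 at an unadjusted p under 0.05). The values that follow are log2 differences, granuloma change less fibrosarcoma change, and all are above 0.

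Of the Dlk1-Dio3 region these were miR-409-3p (5.16), miR-411-5p (4.25), miR-127-3p (4.11), miR-1193-5p (4.95), miR-370-3p (6.16), miR-485-5p (5.49), miR-379-5p (4.58), miR-485-3p (4.44), miR-379-3p (4.53), miR-369-5p (4.43), miR-411-3p (4.61), miR-3072-3p (5.42) and miR-300-3p (4.31). Of the others they were miR-199a-5p (2.80), miR-296-3p (5.25), miR-296-5p (4.15) and miR-298-5p (3.47). All but miR-296-5p were also called higher in the granuloma. None of the 17 passed without IS Sp600, UIS Sp600, UIS Sp976, the fibrosarcoma IS library of Sp2230 or either fibrosarcoma UIS library. With the animal as a block 5 microRNAs passed, 4 of them among the 17.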

How the results depend on the processing

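The 216 calls between IS and UIS became 295 in CPM (162 of the 216 among them, 1 with the opposite sign), 210 with the replicate block on the animal (194 among them), 214 with only the granuloma animals, 201 with a pseudocount of 0.1, 210 of 670 with no filter, 212 by edgeR, 234 by DESeq2 and 129 to 234 with 1 library left out. The rises were 247 in CPM and 52 to 119 with 1 library left out, and the falls were 48 in CPM. Calls of a difference between lesions (17) became 43 in CPM, 5 with the replicate block, 0 with a pseudocount of 0.1 (89 at an unadjusted p under 0.05), 0 with no filter (107), 21 by edgeR, 61 by DESeq2 and 0 to 39 with 1 library left out, and 23 with size factors made without muscle microRNAs. Arm ratios (14) became 30 in CPM, 7 with the replicate block, 8 with a pseudocount of 0.1, 24 with no filter and 3 to 19 with 1 library left out. Families (165) became 243 in CPM, 145 with the replicate block and 87 to 183 with 1 library left out. The share of the 10 most abundant at the UIS was 72.5% without contractile muscle microRNAs. Among named microRNAs that passed by the size factors or in CPM, values in CPM turned the sign of miR-10b-5p (0.73), let-7f-5p (0.94), miR-181a-5p (1.33), miR-143-3p (0.10), miR-145a-5p (0.17), miR-92a-3p (1.83), miR-25-3p (1.79), miR-15a-5p (1.83), let-7a-5p (1.82), let-7i-5p (1.82), miR-181c-5p (1.36), miR-30e-5p (0.11), miR-23b-3p (0.35), miR-24-3p (0.017), let-7d-5p (0.33), let-7d-3p (0.57) and miR-27a-3p (1.37). Among those that passed in neither they turned the sign of miR-10b-3p (0.95), miR-122-5p (0.55), miR-124-3p (0.95), miR-143-5p (1.32), miR-144-5p (1.14), miR-145a-3p (1.13), miR-205-5p (0.72), miR-335-5p (0.30), miR-338-3p (0.40), miR-34a-3p (0.62), miR-34a-5p (1.32), miR-375-3p (0.19), miR-451a (0.77), miR-664-5p (0.32), miR-672-5p (0.29) and miR-99a-5p (0.85). The cause was not tested. Of 92 named microRNAs that were called, 52 kept the call whichever granuloma-animal library was left out. A lone sample of a group was then assumed to vary like the others. With the replicate block the call was lost for let-7d-3p (0.0581), let-7f-5p (0.0829), miR-10b-5p (0.0558), miR-100-3p (0.0727), miR-125b-5p (0.115), miR-141-3p (0.0881), miR-181a-1-3p (0.0881), miR-18a-5p (0.0685), miR-193a-5p (0.0503) and miR-99b-5p (0.0697) and gained for miR-182-5p (0.00635), miR-183-5p (0.00797), miR-222-5p (0.0402), miR-449a-5p (0.0433) and miR-452-5p (0.0373) (adjusted p in parentheses), and for no other microRNA named here. Of the arm ratios given above, miR-296, miR-146b, miR-29c, miR-324, miR-133a, miR-190a and miR-101a lost theirs. Families by seed were not run, since mature sequences were not used here. At the depth of the IS libraries a microRNA at 3 reads or fewer was not resolved.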

Other observations

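Outside the lists 151 microRNAs were tested and 38 differed between IS and UIS, 9 higher and 29 lower. They were called less often than all tested microRNAs, of which 48.3% differed (25.5% higher and 22.8% lower). Within the lists 178 of 296 differed. Lists and members were chosen with earlier results of these data known, so nothing can be concluded from the higher share within the lists. The names that follow were chosen after their values were seen. Among the higher ones, given with the log2 change, were miR-455-5p (4.07), miR-224-5p (3.50), miR-574-3p (2.54) and miR-132-3p (1.79). miR-455 lies in a collagen gene and miR-132 is induced by Creb. Among the lower ones were miR-664-3p (-4.37), miR-361-5p (-3.14), miR-185-5p (-3.11), miR-139-5p (-3.08), miR-149-5p (-2.70) and miR-107-3p (-2.23), of which miR-107 lies in a pantothenate kinase gene.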
